A study of Mus musculus with 9 samples.

Results

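The endocannabinoid genes of mouse brain described here were taken by symbol and comprise the cannabinoid receptor gene Cnr1, the synthesis genes Dagla, Daglb and Napepld, and the breakdown genes Mgll, Abhd6, Abhd12 and Faah. All 8 were found among 18138 in the count table, and each was among the 14756 with enough counts to be tested. Endocannabinoids are lipid messengers that neurons make on demand from membrane lipids. The main ones in brain are 2-arachidonoylglycerol, which is made from diacylglycerol, and anandamide, which is released from a phospholipid precursor. Both act on the receptor CB1, which sits largely on axon terminals and lowers transmitter release when the postsynaptic cell sends the lipid back across the synapse.

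RNA from mouse brain was sequenced in 3 groups of 3 libraries. In the first group the middle cerebral artery was blocked by surgery (MCAO), as a model of stroke, and the mice received hypidone hydrochloride, a compound developed as an antidepressant that acts on the serotonin transporter, at 5 mg/kg for 7 days. The second group had MCAO without hypidone, and the third was the control. Libraries are named by group and by the number in their title: hypidone 2, 7 and 8, MCAO 4, 5 and 6, and Control 4, 5 and 6. Not given in the sources used here are the strain, the age, the brain region and hemisphere, the length of the occlusion, the time from occlusion to sampling, any vehicle and any sham surgery of controls. Nothing in the labels says whether each sample was its own animal, and the p-values therefore reflect sample-to-sample spread that may be technical.

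Each library held 32075682 to 37325027 gene counts. Levels are CPM, read counts relative to library size after TMM scaling. Each comparison was an edgeR quasi-likelihood test over all 14756 genes with Benjamini-Hochberg adjustment, and a gene was called at an adjusted p under 0.05. Each ± after a log2 fold change is its standard error, and each ± after a group mean is the SD of 3 libraries. Neuronal, astrocyte and oligodendrocyte markers were detected in every library, which matches the label brain. Several libraries stood apart from their groups in summed marker levels. Control 5 had a summed level of 194 CPM over 6 choroid plexus markers, against 2.28 to 16.5 CPM in the other 8 libraries, and 961 CPM over 7 hippocampal markers, against 394 to 783 CPM. MCAO 5 had 1642 CPM over 6 macrophage markers, against 14.2 to 170 CPM in the other 8 libraries. MCAO 4 had 26.5 CPM over the same markers, below the hypidone libraries at 29.3 to 105 CPM. Most of the macrophage sum was Lyz2, at 1468 CPM in MCAO 5 and 20.3 CPM in MCAO 4. The sum therefore does not stand for the 6 markers alike. Over 8 microglial markers MCAO 4 had 492 CPM, inside the hypidone range of 457 to 546 CPM, against 1494 CPM in MCAO 5 and 812 CPM in MCAO 6.

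Abhd6 was the 1 gene of the 8 that edgeR called, in MCAO against Control and in hypidone against MCAO. It encodes a membrane-bound serine hydrolase that splits 2-arachidonoylglycerol, in neurons on the postsynaptic side. Its level was lower in MCAO than in Control and higher in hypidone-treated MCAO than in MCAO alone. The other 7 genes passed the test in neither comparison, the receptor gene and all 3 synthesis genes among them. For comparison, 20.4% of all genes tested were called for MCAO against Control and 16.5% for hypidone against MCAO. The MCAO libraries are shared by the 2 comparisons, so their directions are not independent of each other.

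The stretch of 250 bases before the first RefSeq transcription start is shown for Abhd6, as the gene that was called, and for Mgll, as the gene for the main hydrolase of the same lipid, which was not called. Capitals mark matches, on either strand, to the 6 motifs searched: the GC box spelled GGGCGG, the letters CCAAT, the box spelled TATAAA, the cyclic AMP response element spelled TGACGTCA, the E-box spelled CACGTG and the forkhead motif spelled TGTTTAC. The sequences are from RefSeq on GRCm38.p6, 5′ to 3′ on the plus strand, at chr14:8002638-8002887 for Abhd6 and chr6:88724162-88724411 for Mgll.
Abhd6: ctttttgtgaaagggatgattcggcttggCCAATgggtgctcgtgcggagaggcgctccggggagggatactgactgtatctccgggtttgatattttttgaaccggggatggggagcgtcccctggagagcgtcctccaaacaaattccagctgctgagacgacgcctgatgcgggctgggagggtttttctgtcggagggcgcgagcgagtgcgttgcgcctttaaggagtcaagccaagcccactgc
Mgll: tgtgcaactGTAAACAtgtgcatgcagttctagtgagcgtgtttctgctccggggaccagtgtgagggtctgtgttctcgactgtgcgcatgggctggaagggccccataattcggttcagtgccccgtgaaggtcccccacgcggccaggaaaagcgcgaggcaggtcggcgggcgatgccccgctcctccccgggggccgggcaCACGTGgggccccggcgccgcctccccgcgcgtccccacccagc
In the Abhd6 stretch the 1 match was CCAAT, which began at position -221, counted back from -1 at the last base before the start. In the Mgll stretch there were 2 matches, which did not overlap: the forkhead motif, on the other strand, from position -241, and the E-box from position -44. Among 32851 mouse promoter stretches of this length, 33.9% held CCAAT, 6.02% the E-box and 3.17% the forkhead motif. The Abhd6 stretch had 58.4% G and C with 18 CpG dinucleotides and the Mgll stretch 68.0% with 23, against medians of 52.4% and 6. Abhd6 and Mgll each have a second RefSeq start, and the 250 bases before it held 1 match, a GC box. It began at position -38 for Abhd6 and -121 for Mgll. A GC box was held by 32.7% of the 32851 stretches. Of the 8 genes, 6 matched an entry, and Dagla and Abhd12 did not. The matches describe letters in these stretches and were not tested against the RNA levels.

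**Figure D1:**
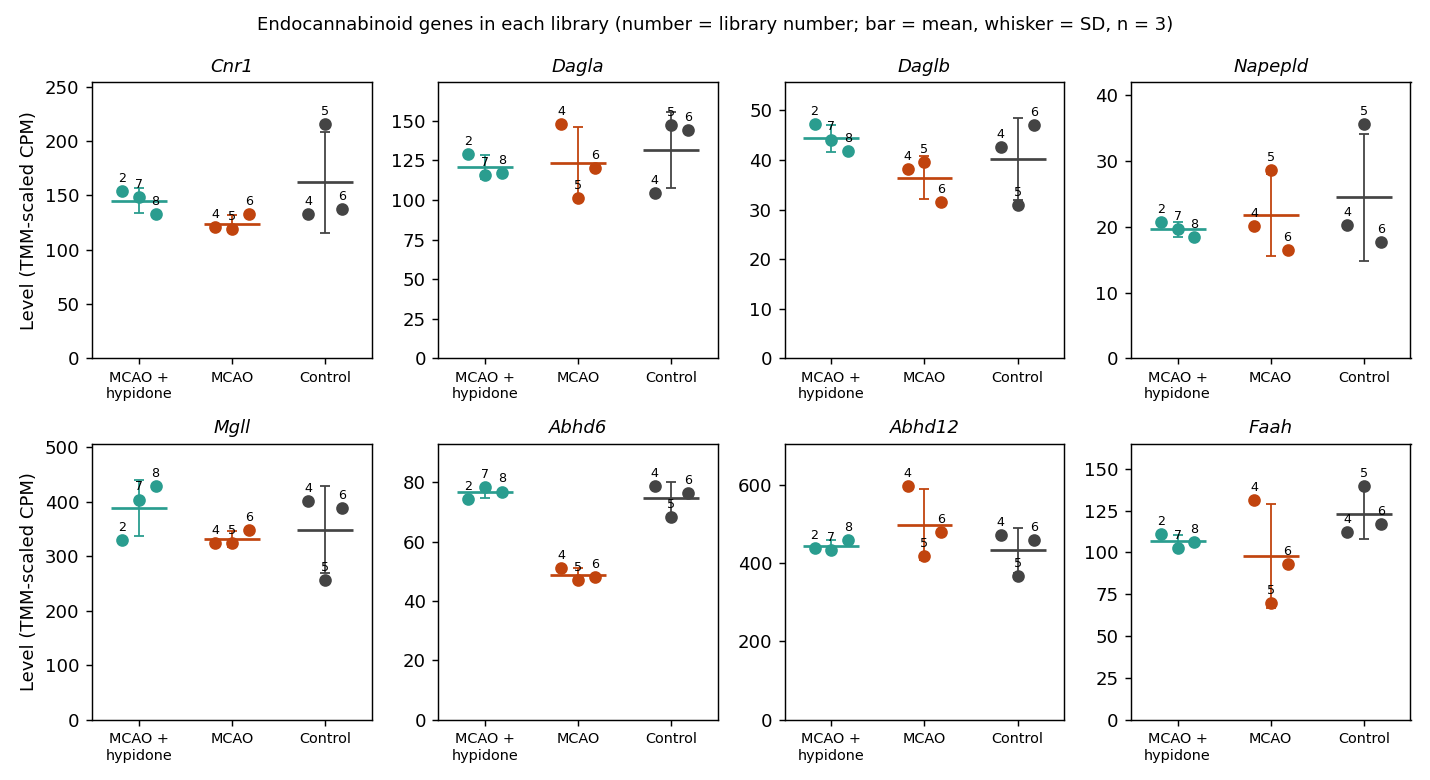
Level of each of the 8 genes (y axis, TMM-scaled CPM, from 0) in hypidone-treated MCAO, MCAO and Control libraries (x axis); each point is 1 library with its number, the bar is the mean and the whisker the SD of 3 libraries. The 3 MCAO points of Abhd6, at 47.2 to 51.2 CPM, sit below the other 6, at 68.3 to 78.7 CPM, and for the other 7 genes the MCAO points overlap at least 1 other group.

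Cnr1 encodes CB1, the main cannabinoid receptor of the brain (chromosome 4, 33924593 to 33948831, plus strand, GRCm38). Its level was 154, 149 and 133 CPM in hypidone 2, 7 and 8, 120, 119 and 133 CPM in MCAO 4, 5 and 6, and 133, 215 and 138 CPM in Control 4, 5 and 6. The ranges overlapped in each pair of groups, with Control 5 far above the other 8 libraries. This gave a log2 fold change of -0.38 ± 0.18 for MCAO against Control (edgeR adjusted p = 0.164, 95% interval -0.80 to 0.03) and 0.23 ± 0.18 for hypidone against MCAO (adjusted p = 0.412, interval -0.19 to 0.64). Without Control 5 the value for MCAO against Control was -0.13 (edgeR adjusted p = 0.454), a smaller difference with the same sign. A loss of Cnr1 larger than the lower bound of -0.80 lies outside the interval, and no change lies inside it.

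Dagla encodes diacylglycerol lipase alpha, the main source of 2-arachidonoylglycerol at adult synapses (chromosome 19, 10245265 to 10304877, minus strand). It stood at 129, 116 and 117 CPM in the hypidone libraries, 148, 101 and 120 CPM in the MCAO libraries and 104, 147 and 144 CPM in the Control libraries. The MCAO and Control values covered nearly the same range, and the hypidone values lay inside it. The log2 fold change was -0.10 ± 0.17 for MCAO against Control (edgeR adjusted p = 0.709, interval -0.49 to 0.29) and -0.028 ± 0.17 for hypidone against MCAO (adjusted p = 0.927, interval -0.42 to 0.36). Its sign turned in either comparison when 1 library was left out.

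Daglb encodes the second diacylglycerol lipase, which in brain is prominent in microglia (chromosome 5, 143464584 to 143505942, plus strand). It was measured at 47.2, 44.1 and 41.8 CPM in hypidone libraries, 38.3, 39.6 and 31.4 CPM in MCAO libraries and 42.6, 30.9 and 47.0 CPM in Control libraries. All 3 hypidone values lay above all 3 MCAO values, while Control overlapped both groups. Hypidone against MCAO gave a log2 fold change of 0.28 ± 0.17 (edgeR adjusted p = 0.260, interval -0.10 to 0.66) and MCAO against Control -0.14 ± 0.17 (adjusted p = 0.577). With limma voom and quality weights, which give less weight to libraries that stand apart, both passed the threshold, at 0.45 (adjusted p = 0.00564) and -0.45 (adjusted p = 0.00913). That setting called many genes: 7631 of 14756 for hypidone against MCAO and 7428 for MCAO against Control. Daglb shares 2309 exon bases with Rac1 on the opposite strand, and whether counting used the strand is unknown from the sources used here, so the 2 genes may share reads. Rac1 stood at 401 to 433 CPM in hypidone, 451 to 483 CPM in MCAO and 403 to 457 CPM in Control libraries.

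Napepld encodes the phospholipase D that releases anandamide and related lipids from their precursors (chromosome 5, 21662901 to 21701396, minus strand). Its level was 20.7, 19.6 and 18.5 CPM in hypidone libraries, 20.1, 28.7 and 16.5 CPM in MCAO libraries and 20.3, 35.5 and 17.6 CPM in Control libraries. The libraries numbered 5, which stood apart in the marker lists, held the highest value of the MCAO and of the Control group. This gave a log2 fold change of -0.17 ± 0.28 for MCAO against Control (edgeR adjusted p = 0.690, interval -0.81 to 0.47) and -0.15 ± 0.28 for hypidone against MCAO (adjusted p = 0.739, interval -0.79 to 0.49). These are the widest intervals among the 8 genes, and without Control 5 the value for MCAO against Control was 0.19.

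Among the breakdown genes, Mgll encodes monoacylglycerol lipase, which removes most of the 2-arachidonoylglycerol of the brain (chromosome 6, 88724412 to 88828360, plus strand). It stood at 331, 404 and 429 CPM in hypidone libraries, 324, 324 and 349 CPM in MCAO libraries and 401, 256 and 388 CPM in Control libraries. MCAO libraries lay close together, and Control 5 was the lowest of the 9. The log2 fold change was -0.069 ± 0.18 for MCAO against Control (edgeR adjusted p = 0.818, interval -0.49 to 0.35) and 0.22 ± 0.18 for hypidone against MCAO (adjusted p = 0.417, interval -0.19 to 0.64). Mgll shares 167 exon bases with the antisense gene Gm26588, a small stretch of an implied length of 5220 bases.

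Abhd6 lies on chromosome 14 (8002902 to 8056763, plus strand). Its level was 74.4, 78.3 and 76.8 CPM in hypidone 2, 7 and 8, 51.2, 47.2 and 48.2 CPM in MCAO 4, 5 and 6, and 78.7, 68.3 and 76.5 CPM in Control 4, 5 and 6. Every MCAO library was below every library of both other groups, and the hypidone and Control values overlapped. Group means were 76.5 ± 1.95 CPM with hypidone, 48.9 ± 2.12 CPM in MCAO and 74.5 ± 5.51 CPM in Control. MCAO against Control gave a log2 fold change of -0.61 ± 0.10, or 0.656-fold (edgeR adjusted p = 0.00648, 95% interval -0.83 to -0.39). Hypidone against MCAO gave 0.65 ± 0.10, or 1.57-fold (edgeR adjusted p = 0.00653, interval 0.43 to 0.87). Each of these values rests on at least 1755 counts.

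For Abhd6, the authors' deposited table lists a ratio of 0.656 for MCAO to Control with a q-value of 0.000485 and a ratio of 1.56 for hypidone to MCAO with a q-value of 7.81e-07. The other 7 genes have q-values of 0.192 to 0.923 in the authors' deposited table. With MCAO 5 and Control 5 both left out, a setting chosen after seeing the data, Abhd6 had -0.62 for MCAO against Control (edgeR adjusted p = 0.00327) and 0.60 for hypidone against MCAO (adjusted p = 0.00230). In bulk tissue, fewer cells of a type and less RNA per cell cannot be told apart. Summed over 9 general neuronal markers, the level was 12256 to 13546 CPM with hypidone, 6241 to 11912 CPM in MCAO and 9690 to 13983 CPM in Control libraries. Of those 9 markers, 1 fell in MCAO against Control (the neurofilament gene Nefl, log2 fold change -1.04, edgeR adjusted p = 0.0109), and 2 rose with hypidone against MCAO. Over all genes 20.4% and 16.5% were called, so these counts are near the background. The median log2 fold change of the 9 markers was -0.37 for MCAO against Control and 0.34 for hypidone against MCAO. For all genes the medians were 0.011 and -0.035. Macrophage markers summed to 29.3 to 105 CPM with hypidone, 26.5 to 1642 CPM in MCAO and 14.2 to 18.1 CPM in Control. Ccr2 was at 0 in Control 4. Of those 6 markers, 3 were called higher in MCAO against Control, beside 20.4% of all genes called. Erythrocyte markers, 5 genes, summed to 71.3 to 187 CPM with hypidone, 4.31 to 28.0 CPM in MCAO and 41.9 to 72.7 CPM in Control. Of those 5, 0 were called for MCAO against Control and 5 rose with hypidone against MCAO, beside 20.4% and 16.5% of all genes. In MCAO 4, 5 and 6, Abhd6 was at 51.2, 47.2 and 48.2 CPM. The neuronal sum there was 11912, 6241 and 8591 CPM, and the macrophage sum 26.5, 1642 and 170 CPM. The part of these marker sums in the result was not tested.

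Abhd12 encodes a hydrolase of lysophosphatidylserine that also splits 2-arachidonoylglycerol and is strongly expressed in microglia (chromosome 2, 150832493 to 150904741, minus strand). It stood at 440, 433 and 460 CPM in hypidone libraries, 597, 418 and 479 CPM in MCAO libraries and 472, 367 and 460 CPM in Control libraries. MCAO 4 was the highest library and the groups overlapped. This gave a log2 fold change of 0.20 ± 0.16 for MCAO against Control (edgeR adjusted p = 0.406, interval -0.17 to 0.57) and -0.16 ± 0.16 for hypidone against MCAO (adjusted p = 0.506, interval -0.54 to 0.21). Microglial markers, summed over 8 genes, stood at 457 to 546 CPM with hypidone, 492 to 1494 CPM in MCAO and 424 to 453 CPM in Control.

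Faah encodes fatty acid amide hydrolase, the main anandamide-degrading enzyme (chromosome 4, 115967145 to 116017926, minus strand). Its level was 111, 103 and 106 CPM in hypidone libraries, 131, 69.8 and 93.2 CPM in MCAO libraries and 112, 140 and 117 CPM in Control libraries. MCAO spread most, with MCAO 4 among the highest libraries and MCAO 5 the lowest of all. The log2 fold change was -0.33 ± 0.21 for MCAO against Control (edgeR adjusted p = 0.281, interval -0.79 to 0.14) and 0.12 ± 0.21 for hypidone against MCAO (adjusted p = 0.712, interval -0.34 to 0.59). For MCAO against Control the call turned on 1 library: without MCAO 4 it was -0.60 (edgeR adjusted p = 0.0240), and without MCAO 5 it was -0.12 (adjusted p = 0.644). Limma voom with quality weights gave -0.30 (adjusted p = 0.0375), in a setting that called 7428 of all 14756 genes.

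**Figure D2:**
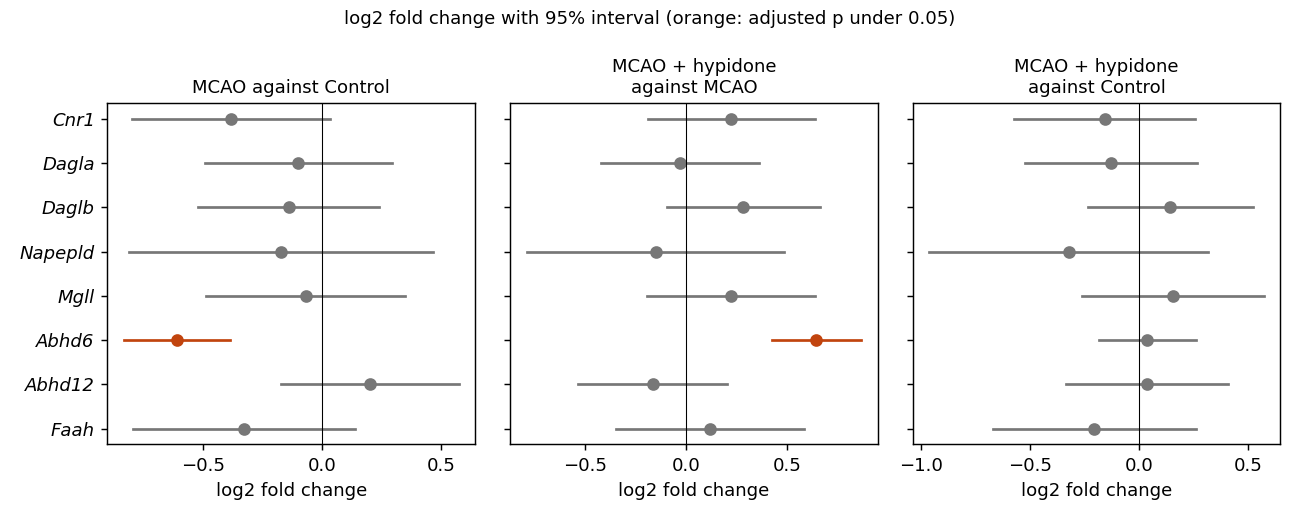
Log2 fold change of the 8 genes (x axis; points with 95% intervals from edgeR) for MCAO against Control, hypidone-treated MCAO against MCAO, and hypidone-treated MCAO against Control, with an adjusted p under 0.05 in orange. Abhd6 is the 1 orange point in the first panel, at -0.61, and in the second, at 0.65, and the third panel has none.

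Over all genes tested, 20.4% were called for MCAO against Control, and 1 of the 8 genes was (Abhd6, lower). For hypidone against MCAO, 16.5% of all genes were called, and 1 of the 8 was (Abhd6, higher). Groups did not overlap in 33.5% of all genes for MCAO against Control, and in 1 of the 8 (Abhd6). They did not overlap in 39.9% of all genes for hypidone against MCAO, and in 2 of the 8 (Abhd6 and Daglb). None of these counts is above its background share. The median log2 fold change of the 8 genes was -0.16 for MCAO against Control, beside 0.011 for all genes, and 0.17 for hypidone against MCAO, beside -0.035 for all genes. Their median size of change, without sign, was 0.19 in both comparisons, beside 0.39 and 0.38 for all genes. Whether Abhd6 changed more than the other 7 genes was not tested.

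For hypidone against Control, 0% of all genes and 0 of the 8 were called by edgeR. At an unadjusted edgeR p under 0.05 there were 131 of 14756 genes and 0 of the 8, DESeq2 called 1 gene of all and limma voom called 0. With no difference in any gene, a share of 0.05 would be expected at that unadjusted threshold, and the 131 are fewer. That small count is therefore no sign that the groups were alike. Log2 fold changes of the 8 lay between -0.32 for Napepld and 0.16 for Mgll, with a median of -0.046 beside -0.0065 for all genes. For Abhd6 the value was 0.039 ± 0.098 with a 95% interval of -0.18 to 0.26, the narrowest of the 8. Groups did not overlap in 6.57% of all genes and in 1 of the 8, Faah, where the 3 hypidone values of 103 to 111 CPM lay just below the 3 Control values of 112 to 140 CPM (-0.21 ± 0.21, interval -0.67 to 0.26). A lack of calls does not show that the groups were alike, and the intervals of the other 7 genes reach at their farther end from 0.41 for Abhd12 to -0.96 for Napepld.

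**Figure D3:**
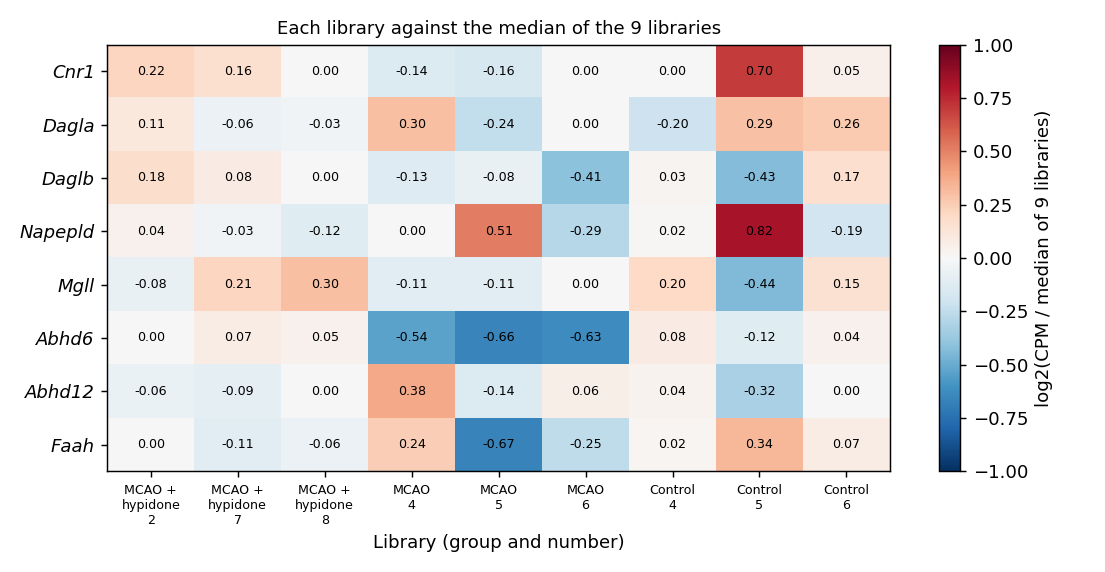
Log2 of the CPM of each gene (vertical) in each of 9 libraries (horizontal) over the median of the 9, in red above it and blue below it. Abhd6 is at -0.54, -0.66 and -0.63 in MCAO 4, 5 and 6, and Control 5 holds the highest values of Cnr1, at 0.70, and Napepld, at 0.82.

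The 8 genes did not vary together over the 9 libraries. Pearson's r of log2 CPM between pairs of them ran from -0.77 for Napepld and Mgll to 0.78 for Faah and Dagla, as a description over libraries that share their groups. Control 5 stood out for several genes at once: against the median of all libraries it was higher by 0.70 for Cnr1, 0.82 for Napepld, 0.34 for Faah and 0.29 for Dagla on the log2 scale. In the same library Mgll was at -0.44, Daglb at -0.43 and Abhd12 at -0.32. Abhd6, at -0.12 in Control 5, was the gene least displaced there. Oligodendrocyte markers summed to 7493 CPM in Control 5, against 2784 to 4791 CPM in the other 8 libraries, and their part in these values was not tested.

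Levels of different genes were set side by side per length, with the deposited FPKM values. Abhd12 was highest at 186 FPKM (mean of the 3 group means, range over 9 libraries 151 to 229), followed by Mgll at 68.2 FPKM (49.5 to 81.4) and Faah at 28.4 FPKM (19.7 to 36.8). Dagla had 20.6 FPKM (16.8 to 24.4), Cnr1 13.7 FPKM (10.8 to 20.6) and Daglb 11.7 FPKM (9.01 to 13.6). Napepld had 5.31 FPKM (4.09 to 8.63) and Abhd6 4.67 FPKM (3.39 to 5.51). Neighbours in this order overlapped over the libraries for Faah and Dagla, Dagla and Cnr1, Cnr1 and Daglb, and Napepld and Abhd6, and the other 3 neighbouring pairs did not overlap.

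The place of Abhd6 in that order depended on gene length. Its FPKM values imply a length of 14243 bases, 6.02 times the 2365 bases that its GENCODE M21 exons cover. With GENCODE lengths for all 8 genes, an alternative chosen after seeing the data, Abhd6 stood at 28.1 FPKM, after Abhd12 at 162 and Mgll at 70.1. Cnr1 then had 22.3, Dagla 21.7, Faah 13.9, Napepld 5.57 and Daglb 4.21. The sources used here do not say which bases were counted for each gene. A fixed length cancels in comparisons between groups, so the fold changes of Abhd6 do not depend on it.

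**Figure D4:**
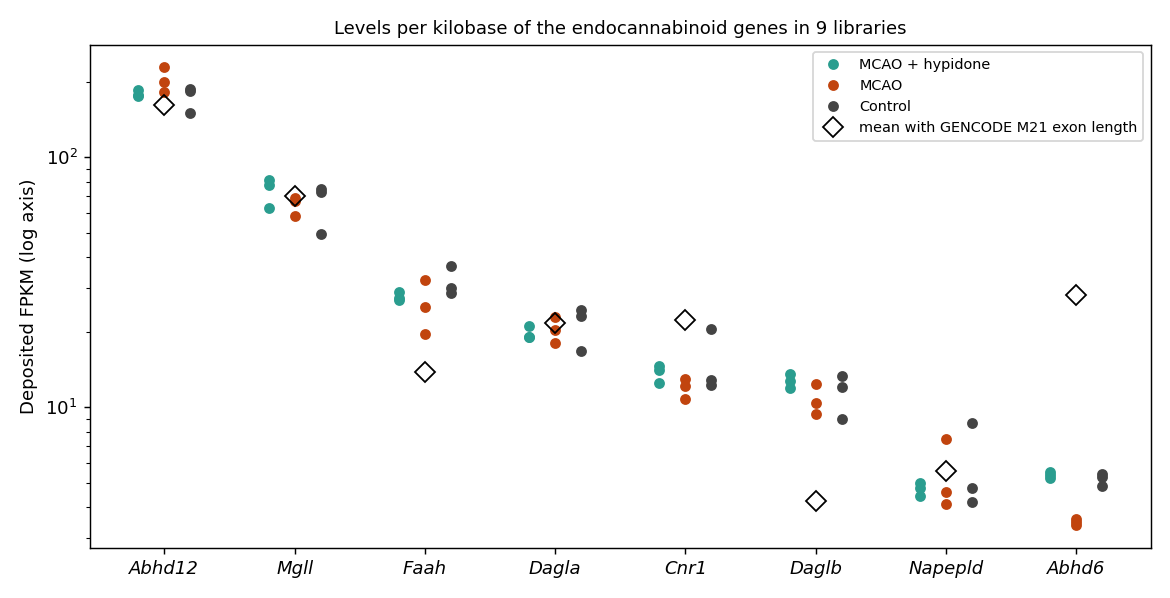
Deposited FPKM (y axis, log scale) of the 8 genes in order of their mean (x axis), 1 point per library with hypidone-treated MCAO, MCAO and Control side by side; open diamonds are means recomputed with GENCODE M21 exon lengths. The diamond of Abhd6, at 28.1, lies far above its points at 3.39 to 5.51, and those of Mgll and Dagla lie among their points.

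Ratios within a library need no scaling between libraries. For Mgll to Abhd6, the 2 hydrolases of 2-arachidonoylglycerol on either side of the synapse, the FPKM ratio was 12.1, 14.1 and 15.2 in hypidone libraries, 17.2, 18.7 and 19.7 in MCAO libraries and 13.9, 10.2 and 13.8 in Control libraries. Every MCAO ratio was above every ratio of the other groups. The ratio of Abhd12 to Abhd6 was 34.2, 32.0 and 34.7 with hypidone, 67.5, 51.3 and 57.6 in MCAO and 34.8, 31.2 and 34.9 in Control, also without overlap. Both ratios hold Abhd6, the gene already called, and their size carries its uncertain length. Mgll to Dagla, breakdown to synthesis of the same lipid, was 2.98, 4.07 and 4.25 with hypidone, 2.55, 3.71 and 3.38 in MCAO and 4.47, 2.03 and 3.13 in Control, with groups that overlapped. No test was made of a ratio.

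Genes whose levels ran most like Abhd6 over the 9 libraries were sought among 12359 genes. The 3 with the highest Pearson's r of log2 CPM were Dbndd1, Shc3, which encodes a neuronal signalling adaptor, and Vamp4, which encodes a SNARE protein of vesicle traffic, each at 0.995. Such a likeness was common: 732 genes, or 5.92%, had an r of at least 0.9. Shc3 stood at 205, 232 and 202 CPM with hypidone, 57.9, 43.4 and 40.7 CPM in MCAO and 204, 156 and 222 CPM in Control. MCAO lay below both other groups. The 3 genes were picked by their likeness to Abhd6 in these same libraries, so their order of groups and fold changes follow from that choice and are given as a description. The log2 fold change of Shc3 was -2.04 ± 0.18 for MCAO against Control and 2.17 ± 0.18 for hypidone against MCAO. Dbndd1 had -1.89 ± 0.20 and 2.01 ± 0.20, and Vamp4 -0.54 ± 0.10 and 0.54 ± 0.10. For hypidone against MCAO, edgeR's adjusted p for Vamp4 was above 0.05 without hypidone 7 or 8 or without MCAO 6 (highest 0.0606).

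Beyond the 8 genes, receptors and receptor partners of the system had 4 tested genes of 6, Gpr18 and Trpv1 being too low. Of the 4, 1 rose and 1 fell in MCAO against Control, and both were called in the other direction for hypidone against MCAO, beside 20.4% and 16.5% of all genes called. Cnr2, the gene for CB2, the cannabinoid receptor of immune cells, was at 0.144, 0.266 and 0.293 CPM with hypidone, 1.51, 5.13 and 2.31 CPM in MCAO and 0.0319, 0.217 and 0.0901 CPM in Control. The MCAO libraries were the highest, with 53 to 197 counts against 1 to 10 counts in the others. Its log2 fold change was 4.65 ± 0.75 for MCAO against Control (edgeR adjusted p = 0.00646) and -3.65 ± 0.70 for hypidone against MCAO (adjusted p = 0.0125). With 1 library left out the adjusted p was 0.00322 to 0.0330 for MCAO against Control, and for hypidone against MCAO the call was lost without hypidone 2, 7 or 8 (highest adjusted p 0.0606). Without Control 5 and MCAO 5 the log2 fold changes were 4.89 and -3.03. MCAO 5, the library with the highest macrophage marker sum, also had the most Cnr2, and the part of macrophages in this result was not tested.

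Cnrip1 encodes a protein that binds the tail of CB1 and had the highest FPKM of this list. It was at 84.8, 72.2 and 75.8 CPM with hypidone, 65.9, 46.7 and 47.3 CPM in MCAO and 79.8, 98.7 and 79.7 CPM in Control. All MCAO values lay below those of both other groups. This gave a log2 fold change of -0.69 ± 0.16 for MCAO against Control (edgeR adjusted p = 0.0202) and 0.54 ± 0.16 for hypidone against MCAO (adjusted p = 0.0496). The first call was lost without MCAO 6 or Control 6 (highest adjusted p 0.0828), and the second without any 1 of hypidone 2, 7 or 8, MCAO 5 or 6 and Control 4 or 6 (highest adjusted p 0.172). Without Control 5 and MCAO 5 the log2 fold changes were -0.47 (adjusted p = 0.0539) and 0.44 (adjusted p = 0.0510). The median log2 fold change of the 4 genes was -0.026 for MCAO against Control and -0.11 for hypidone against MCAO, beside 0.011 and -0.035 for all genes.

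Of 6 other synthesis genes, 5 were tested, and Hrasls5 was not analysed here. Among the 5, 2 were called higher in MCAO against Control, and 1 lower with hypidone against MCAO, beside 20.4% and 16.5% of all genes called. Abhd4, a hydrolase of another route to anandamide, was at 77.0, 84.5 and 81.6 CPM with hypidone, 90.8, 135 and 134 CPM in MCAO and 71.3, 92.4 and 69.1 CPM in Control. Its log2 fold change was 0.63 ± 0.18 for MCAO against Control (edgeR adjusted p = 0.0358) and -0.56 ± 0.17 for hypidone against MCAO (adjusted p = 0.0562). MCAO 4, the lowest of its group, lay below Control 5. The call for MCAO against Control rested on several libraries: with 1 library left out the adjusted p was 0.00617 to 0.124, and it was above 0.05 without any 1 of hypidone 2, 7 or 8, MCAO 5 or 6 and Control 4 or 6. Gdpd3, a lysophospholipase D gene, was called in both comparisons (2.74 and -3.19) at no more than 1.41 CPM in any library, and both calls were lost without any 1 of hypidone 2, 7 or 8, MCAO 5 or 6 and Control 4 (highest adjusted p 0.134 and 0.114). The first was also lost without Control 6. Gde1, a phosphodiesterase gene with the highest FPKM of this list, stood at 261 to 292 CPM with hypidone, 233 to 319 CPM in MCAO and 208 to 305 CPM in Control, and was not called. The median log2 fold change of the 5 genes was 0.63 for MCAO against Control and -0.56 for hypidone against MCAO, beside 0.011 and -0.035 for all genes.

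Among 3 other breakdown genes, 0 were called for MCAO against Control and 1 for hypidone against MCAO, beside 20.4% and 16.5% of all genes. The 1 was Alox12, a lipoxygenase gene, at 2.34 ± 0.69 (edgeR adjusted p = 0.0478), on 20 to 29 counts with hypidone and 2 to 11 counts in MCAO. That call was lost with any 1 library but MCAO 5 left out (highest adjusted p 0.144). Naaa, the gene for a lysosomal amidase of anandamide-like lipids, had the highest FPKM of the 3 and averaged 37.8 ± 3.94 CPM with hypidone, 42.5 ± 3.57 CPM in MCAO and 37.1 ± 10.3 CPM in Control (SD, n = 3 each). Control spanned the values of both other groups, and Naaa was not called. Of the 3 fatty acid binding protein genes, whose products carry anandamide in cells, 0 were called in either comparison, against 20.4% and 16.5% of all genes. Fabp3, with the highest FPKM of this list, stood at 116 to 127 CPM with hypidone, 51.4 to 131 CPM in MCAO and 67.5 to 136 CPM in Control, lowest in its group in MCAO 5 and in Control 5.

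In the signalling that drives synthesis of 2-arachidonoylglycerol, 2 of 10 genes were called lower in MCAO against Control and the same 2 higher with hypidone against MCAO. The shares over all genes were 20.4% and 16.5%, so these counts are near the background. Chrm1, the M1 muscarinic receptor gene, was at 267, 253 and 237 CPM with hypidone, 196, 115 and 129 CPM in MCAO and 244, 277 and 256 CPM in Control. Its log2 fold change was -0.82 ± 0.19 for MCAO against Control (edgeR adjusted p = 0.0201) and 0.78 ± 0.19 for hypidone against MCAO (adjusted p = 0.0261). Homer2, a scaffold of metabotropic glutamate receptors, was at 59.1, 72.3 and 63.7 CPM with hypidone, 40.0, 22.8 and 27.9 CPM in MCAO and 63.9, 93.5 and 52.8 CPM in Control (-1.21 ± 0.25, edgeR adjusted p = 0.0137, and 1.10 ± 0.25, adjusted p = 0.0214). In both genes the MCAO group lay below both other groups. Without Control 5 and MCAO 5 the values were -0.60 and 0.61 for Chrm1 and -0.76 and 0.92 for Homer2, all called. With 1 library left out, Chrm1 lost the first call without MCAO 6, Control 4 or Control 6 (highest adjusted p 0.0826), and Homer2 lost it without MCAO 6 (0.0591). Both lost the second call without MCAO 6 or without hypidone 2, 7 or 8 (highest adjusted p 0.108 and 0.0865). The median log2 fold change of the 10 genes was -0.44 for MCAO against Control and 0.62 for hypidone against MCAO, beside 0.011 and -0.035 for all genes. The summed neuronal markers given with Abhd6 differ between the same libraries, and their part was not tested. Camk2a, a kinase that inhibits the Dagla enzyme and had the highest FPKM of the 10, was at 3966 to 4884 CPM with hypidone, 2270 to 5630 CPM in MCAO and 4264 to 5192 CPM in Control, and was not called.

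**Figure D5:**
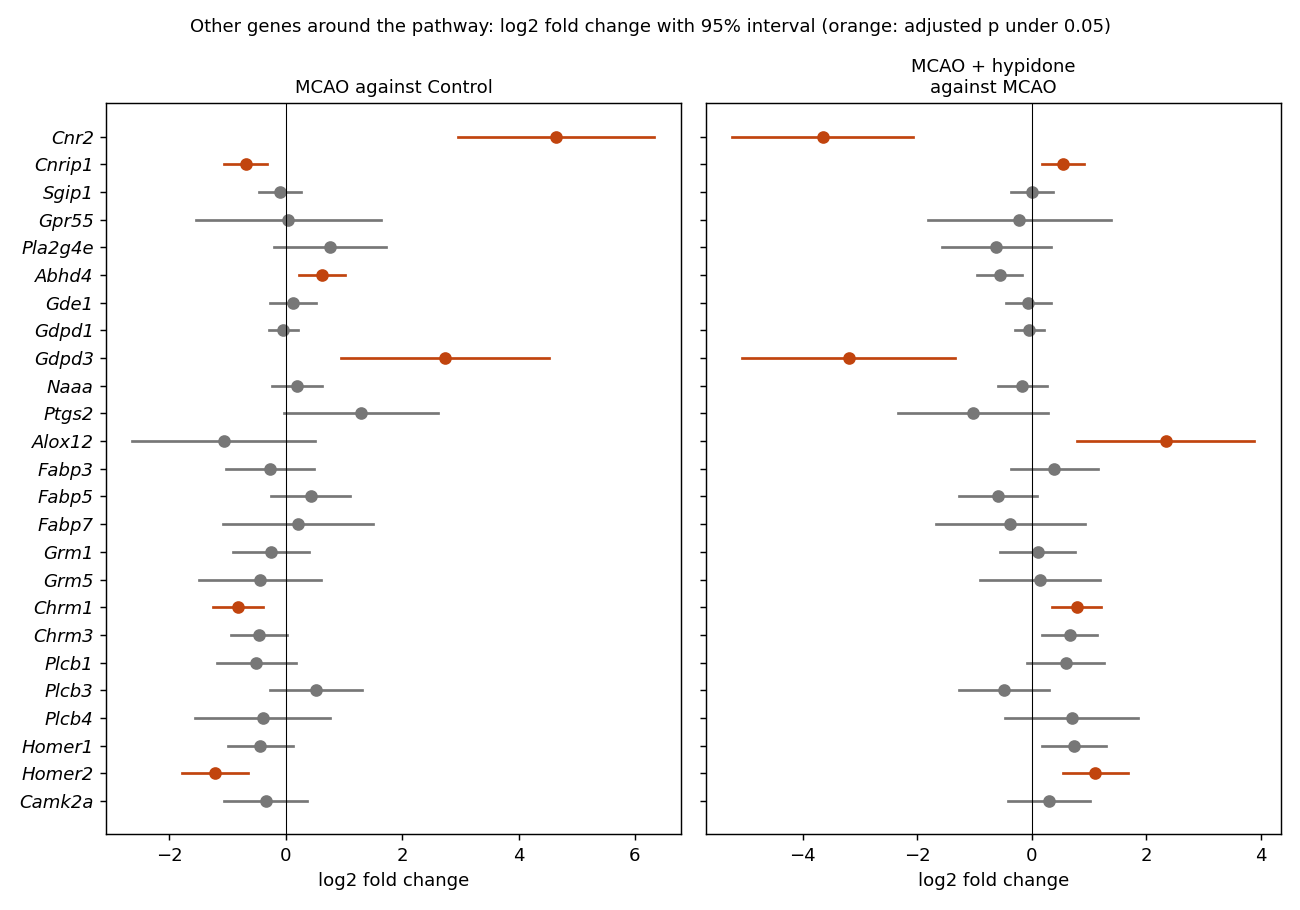
Log2 fold change (x axis, points with 95% intervals from edgeR) of 25 tested genes around the pathway (vertical) for MCAO against Control and for hypidone-treated MCAO against MCAO, with an adjusted p under 0.05 in orange. Cnr2, at 4.65 and -3.65, moves most, and Cnrip1, Chrm1 and Homer2 are orange on the left side in the first panel and on the right side in the second.

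Neurons that release cholecystokinin carry much CB1 in cortex and hippocampus. Of 7 genes listed as markers of these cells, 1 fell in MCAO against Control and 1 rose with hypidone against MCAO. In both cases it was Cck, the cholecystokinin gene. Whether the 7 genes are specific to these cells was not tested, and bulk RNA does not assign Cck to a cell type. With 20.4% and 16.5% of all genes called, these counts are not above the background. The median log2 fold change of the 7 genes was -0.73 for MCAO against Control and 0.56 for hypidone against MCAO. For all genes the medians were 0.011 and -0.035. The level of Cck was 329, 379 and 367 CPM with hypidone, 206, 120 and 175 CPM in MCAO and 369, 271 and 396 CPM in Control. The groups of MCAO and Control did not overlap, and the log2 fold change was -1.05 ± 0.22 (edgeR adjusted p = 0.0131; 0.0533 without Control 6). For hypidone against MCAO it was 1.10 ± 0.22 (edgeR adjusted p = 0.0132), and the call was lost without hypidone 7 or 8 or without MCAO 6 (highest adjusted p 0.0565). The 7 markers summed to 1779 to 2073 CPM with hypidone, 973 to 1693 CPM in MCAO and 2080 to 2339 CPM in Control. Most of this sum was Cplx2, with means of 1500 CPM with hypidone, 1017 CPM in MCAO and 1692 CPM in Control. The sum therefore does not stand for the 7 markers alike. Cnr1 itself was not called in either comparison.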

How the data were processed

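RNA from 9 mouse brain samples was extracted with TRIzol, per the labels, and a VAHTS Universal kit was used for the libraries. The authors deposited a table of raw counts. A second deposited table holds FPKM, each count over its library's total and over 1 length per gene. Another deposited table holds the ratio and the q-value of each gene in the authors' own comparisons. The mm10 build and DESeq2 are named, without role or version, per the submitters' processing notes, while aligner, counter and strand use are unknown from the sources used here.

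Groups came from the labels and library numbers from the titles. Genes were filtered with edgeR's filterByExpr (14756 of 18138 kept) and libraries scaled with TMM. All 9 libraries entered 1 quasi-likelihood fit (edgeR 4.0.16, R 4.3.3, 6 residual degrees of freedom), with two-sided F tests and Benjamini-Hochberg adjustment at 0.05. Standard errors were taken as the absolute log2 fold change over the square root of F. Replicate libraries differed by more than sampling noise (lowest chi-square per degree of freedom 14.9). Positions are from GENCODE M21, which matched all 8 genes.

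The 8 genes and the other lists were chosen with earlier results of these data known. All 8 were named, then every called gene and the gene with the highest mean FPKM in each pathway list, and the 3 genes most like each called member. Marker genes are given as counts, apart from Nefl, Cck, Cplx2, Ccr2, Lyz2, Fibcd1, Prox1, Dkk3 and Wfs1, which were named after their values were seen. Alternatives were DESeq2-style size factors, library totals, 2 other filters, DESeq2 1.42.0, limma 3.58.1 (voom with quality weights, and log2 FPKM with pseudocounts of 1 and 0.1), only the groups compared, a replicate block and each library left out. Fits without Control 5 and MCAO 5, GENCODE lengths, and the alternatives for genes other than the 8 were added after seeing the data. The steps were tested on simulated data.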

Additional observations from a re-analysis of the deposited data

How the results depend on the processing

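Over 20 alternative settings, 464 values were recomputed for the 24 fold changes of the 8 genes: 431 kept their direction and side of the threshold, 1 lost its call, 4 gained one and 28 turned sign, none of the 28 being called. The log2 fold change of Abhd6 lay between -0.67 and -0.46 for MCAO against Control (adjusted p 4.69e-08 to 0.0837) and between 0.50 and 0.69 for hypidone against MCAO (adjusted p 8.79e-09 to 0.0401). Its 1 lost call came with the replicate block, fitted to MCAO and Control because their titles carry the same numbers: the value was -0.61 (adjusted p = 0.0837), and the block called 0 of the 8 genes and 0 of all genes, with 3849 at an unadjusted p under 0.05. Deviations of same-numbered libraries correlated at 0.12, 0.12 and -0.04, and MCAO 6 and MCAO 4 correlated best with another number, so the libraries share a number and are not shown to be pairs.

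Limma voom called 3 of the 8 genes for MCAO against Control (Abhd6, Daglb and Faah) and 2 for hypidone against MCAO (Abhd6 and Daglb), and the cause was not tested. Leaving out 1 library gave 1 to 2 called genes for MCAO against Control, the second being Faah without MCAO 4. Over all genes, the number called for MCAO against Control was 3015 as reported, 7428 with voom, 682 with only the groups compared, 4579 without Control 5 and MCAO 5, and 1093 to 4275 with 1 library left out. For hypidone against MCAO it was 2437 as reported, 4011 with DESeq2, 7631 with voom, 4780 without Control 5 and MCAO 5, and 548 to 3875 with 1 library left out, so the background shares move with the setting.

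Signs turned with voom for hypidone against MCAO in Napepld (0.18), and for hypidone against Control in Cnr1 (0.057), Daglb (-0.00037), Abhd12 (-0.055) and Napepld (0.0018). Without Control 5 and MCAO 5 they turned for MCAO against Control in Dagla (0.13), for hypidone against MCAO in Faah (-0.092) and Napepld (0.082), and for hypidone against Control in Cnr1 (0.11), Daglb (-0.0082), Mgll (-0.017), Abhd6 (-0.014), Abhd12 (-0.063) and Napepld (0.053). With 1 library left out, the results whose sign turned had these ranges. For MCAO against Control they were -0.26 to 0.038 for Dagla, -0.25 to 0.040 for Mgll and -0.41 to 0.19 for Napepld. For hypidone against MCAO they were -0.17 to 0.13 for Dagla, -0.091 to 0.39 for Faah and -0.32 to 0.083 for Napepld. For hypidone against Control they were -0.28 to 0.10 for Cnr1, -0.015 to 0.27 for Daglb, -0.023 to 0.27 for Mgll, -0.021 to 0.081 for Abhd6, -0.070 to 0.10 for Abhd12 and -0.51 to 0.046 for Napepld. GENCODE lengths moved the levels of Abhd12, Faah, Cnr1, Daglb and Abhd6 by more than the largest SD within a group; for Abhd12 the new level lay inside the range of the 9 libraries.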
